A study of Mus musculus with 11 samples.

Results

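Imprinted genes that regulate growth were followed across mouse hippocampal neural stem cell (NSC) cultures. The set held 10 genes, Meg3, Rian, Mirg, H19, Igf2, Dlk1, Cdkn1c, Peg3, Peg10 and Ndn, chosen by name and matched to the gene identifiers of the deposited tables through the GENCODE mouse annotation. They were 10 of 53801 genes listed, and 9 of them were among the 15920 genes with enough reads for a test. Mirg was below that limit. Primary NSCs came from hippocampi of mid-gestation embryos (the methods name C57BL/6 as the study's mice). The cultures were treated for 7 days with the compound 4HBP or its EtOH vehicle, and their bulk RNA was sequenced. In proliferation medium, which held EGF and bFGF (20 ng/ml of each) with 1% B27, there were 3 libraries with 1 µM 4HBP and 3 with the EtOH vehicle (control). In differentiation medium, which lacked both growth factors and held 2% B27, there were 3 libraries with 1 µM 4HBP and 2 controls. The sample labels spell out 4HBP as 4-Hydroxybenzoic acid, whereas the study's text calls it 4-hydroxybenzophenone, so the compound is called 4HBP here. The comparisons asked what 4HBP did in each medium, what the change of medium did with and without 4HBP, and whether the 4HBP difference depended on the medium.

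Genomic imprinting is the expression of a gene from the copy inherited from only 1 parent, set by DNA methylation that is laid down in the germ line. Meg3, Rian, Mirg, H19 and Cdkn1c are known as maternally expressed genes, and Igf2, Dlk1, Peg3, Peg10 and Ndn as paternally expressed genes. As a group they are known for opposing effects on growth: the secreted factor encoded by Igf2 promotes it, while the cyclin-dependent kinase inhibitor encoded by Cdkn1c holds back the cell cycle, and Dlk1 and Cdkn1c are known for roles in the upkeep of NSCs. The deposited tables hold 1 value a gene, the sum over both parental copies, so imprinting itself was not measured.

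The genes lie on 3 chromosomes of GRCm38. On chromosome 12, Dlk1 (chr12:109452823-109463336), Meg3 (chr12:109541001-109571726), Rian (chr12:109603940-109661716) and Mirg (chr12:109729764-109749460) follow each other on the plus strand in the Dlk1-Dio3 domain, with Meg3, Rian and Mirg as long non-coding RNAs. On chromosome 7, H19 (chr7:142575529-142578143), Igf2 (chr7:142650766-142666816) and Cdkn1c (chr7:143458339-143461050) lie on the minus strand in neighbouring domains. Peg3 (chr7:6703892-6730431, minus strand) and Ndn (chr7:62346569-62350262, plus strand) lie apart from them on the same chromosome. Peg10 (chr6:4747306-4760517) lies on the plus strand of chromosome 6. Genes that overlap these spans drew few reads, at most 17.57 expected counts summed over the 11 libraries, for a gene within the Igf2 span. The identifiers of the 10 genes are ENSMUSG00000021268.17 (Meg3), ENSMUSG00000097451.10 (Rian), ENSMUSG00000097391.8 (Mirg), ENSMUSG00000000031.16 (H19), ENSMUSG00000048583.16 (Igf2), ENSMUSG00000040856.17 (Dlk1), ENSMUSG00000037664.13 (Cdkn1c), ENSMUSG00000002265.16 (Peg3), ENSMUSG00000092035.8 (Peg10) and ENSMUSG00000033585.5 (Ndn). The strand setting of the counting is not given in the sources used here, so reads of Igf2 and of its antisense partner Igf2os cannot be told apart.

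Of the 10 genes, 5 carry microRNAs (miRNAs) on their own strand in RefSeq: Mirg holds 26 mature miRNAs, Rian 6, Meg3 3, H19 2 and Igf2 2. Those of H19 and Igf2 and the miR-770 pair of Meg3 are shown because their hosts carry results below, with bases 2 to 8 (the seed, which pairs with target mRNAs) in capitals, 5′ to 3′.
miR-675-5p (H19): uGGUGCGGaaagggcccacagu
miR-675-3p (H19): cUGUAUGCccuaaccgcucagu
miR-483-5p (Igf2): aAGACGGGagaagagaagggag
miR-483-3p (Igf2): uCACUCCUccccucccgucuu
miR-770-5p (Meg3): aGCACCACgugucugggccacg
miR-770-3p (Meg3): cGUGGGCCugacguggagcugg
Their positions on GRCm38.p6 are chr7:142577112-142577133 and chr7:142577078-142577099 for miR-675-5p and -3p and chr7:142654968-142654989 and chr7:142654932-142654952 for miR-483-5p and -3p, on the minus strand. Those of miR-770-5p and -3p are chr12:109563710-109563731 and chr12:109563744-109563765, on the plus strand. All 6 seeds differ from each other. Within Mirg, 2 miRNAs share the seed GGUUGCC and are shown as the one shared seed among all miRNAs of the 5 hosts.
miR-453 (Mirg): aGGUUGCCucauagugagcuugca
miR-496a-5p (Mirg): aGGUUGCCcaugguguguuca
These lie at chr12:109735669-109735692 and chr12:109739132-109739152 on the plus strand. The mature miRNAs themselves were not measured in these libraries, and the level of a host transcript is not the level of its miRNA.

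RefSeq promoter windows, 250 bases before to 50 after a start site, were given for 7 of the 10 genes, and those without one are H19, Cdkn1c and Peg10. Each window was searched on both strands for TGACGTCA, the cAMP response element, and for TGATGCAA, the composite element of C/EBP and ATF factors. TGACGTCA lay in 588 of 32851 windows of all genes (1.79%), among them the windows of Peg3 and Meg3. TGATGCAA lay in 294 of the 32851 windows (0.895%) and in none of these genes. The 250 bases before the start of Peg3 and Meg3 are printed 5′ to 3′ on the gene's strand, with TGACGTCA in capitals.
Peg3, chr7:6730420-6730669, minus strand, GRCm38.p6: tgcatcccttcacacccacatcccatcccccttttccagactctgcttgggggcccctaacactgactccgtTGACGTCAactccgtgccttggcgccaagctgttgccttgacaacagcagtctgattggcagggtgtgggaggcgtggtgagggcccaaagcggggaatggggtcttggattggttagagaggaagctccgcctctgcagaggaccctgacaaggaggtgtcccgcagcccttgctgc
Meg3, chr12:109540746-109540995, plus strand, GRCm38.p6: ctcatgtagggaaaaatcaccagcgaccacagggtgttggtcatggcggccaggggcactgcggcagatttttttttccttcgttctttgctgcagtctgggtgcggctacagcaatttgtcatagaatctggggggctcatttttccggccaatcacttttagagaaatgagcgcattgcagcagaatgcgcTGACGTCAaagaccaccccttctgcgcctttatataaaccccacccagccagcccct
Starts are those of RefSeq. The element began 178 bases before the start of Peg3 and 57 bases before the start of Meg3. Each of these 2 full windows held 13 CpG dinucleotides, and 37.9% of all windows held as many or more. A match of letters is a description of the sequence, and binding was not measured.

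The libraries held 20822921 to 23438463 expected counts each, so that 3 counts, the smallest number taken as a floor, corresponded to 0.128 to 0.144 CPM (counts scaled to a common library size). Levels below are CPM on library sizes normalised by TMM (normalised CPM). Differences are log2 fold changes from edgeR's quasi-likelihood test, with p adjusted by Benjamini-Hochberg over the 15920 genes and called under 0.05. The standard error (SE) given with each is its size divided by the square root of the test's F statistic. The cultures carried high levels of NSC, astrocyte and oligodendrocyte lineage markers, while the summed level of 5 endothelial markers was 3.1 to 21.4 CPM (in proliferation medium mostly Flt1), with Cdh5 and Cldn5 at 0. Libraries in proliferation medium differed more from each other than those in differentiation medium, with a biological coefficient of variation of 0.117 against 0.0368. Within the proliferation 4HBP group, replicate 3 stood apart: a chi-square per gene gave 23.8 and 21.4 against replicates 1 and 2, which differed by 5.34 from each other. The labels do not say that replicates came from separate cultures or animals, so the p-values measure the spread between these libraries, which may be technical. In bulk cultures, fewer cells of a type and less RNA per cell cannot be told apart.

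Levels of different genes were set side by side only per transcript length, as the deposited TPM, and only within a medium, because mitochondrial genes took 24.2% to 28.3% of TPM in proliferation medium and 13.3% to 14.0% in differentiation medium. In proliferation controls H19 was the most abundant of the 10 genes per length, at 107 ± 12.7 TPM (SD, n = 3). Cdkn1c (44.9 ± 4.05 TPM) and Dlk1 (33.2 ± 8.04 TPM) came next with overlapping ranges. Ndn, Meg3, Peg3 and Rian formed a run of neighbours with overlapping ranges, from 20.6 down to 16.9 TPM. Peg10 had the next lower mean, at 13.5 ± 2.25 TPM, with a range (11.4 to 15.9 TPM) that overlapped that of Peg3 (14.8 to 20.5 TPM) but not that of Rian. The lowest were Igf2 at 0.887 ± 0.243 TPM and Mirg at 0.23 ± 0.106 TPM. In differentiation controls the order was another: Ndn stood first at 34.2 ± 0.813 TPM (SD, n = 2), ahead of Peg10, Meg3 and Peg3, whose ranges overlapped between 19.6 and 24 TPM. Rian was at 16.6 TPM, Dlk1 at 8.66 TPM and Cdkn1c at 4.33 TPM, and the lowest 3 were Igf2, H19 and Mirg at 1.08, 0.74 and 0.57 TPM. With 4HBP, H19 stood first in proliferation medium (187 ± 61.3 TPM, n = 3), and Ndn in differentiation medium (33.9 ± 1.59 TPM, n = 3).

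**Figure D1:**
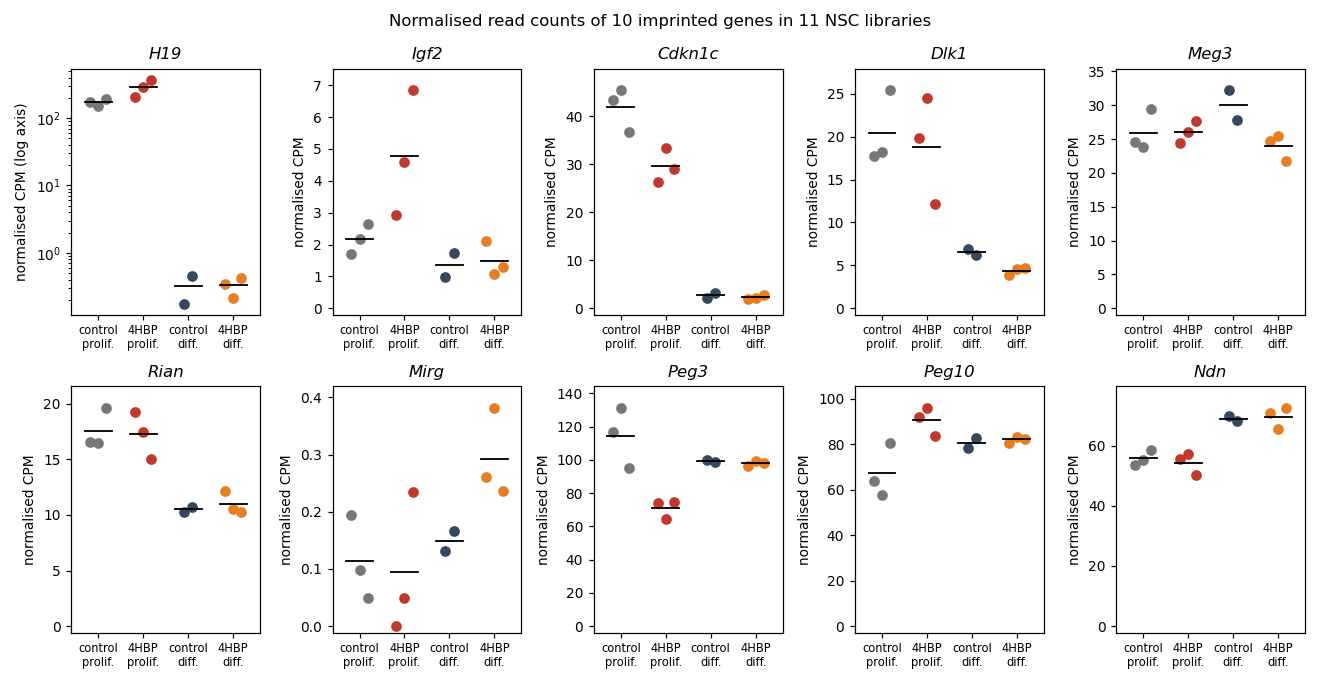
Normalised CPM (y axis, linear except for the log axis of H19) of the 10 genes in each of the 11 libraries, by group (x axis: control and 4HBP in proliferation and in differentiation medium), with points for libraries and a bar for the group mean. H19 lay between 151 and 372 CPM in proliferation medium and between 0.176 and 0.459 CPM in differentiation medium, and Peg3 was lower in the 3 proliferation 4HBP libraries than in the other 8.

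In proliferation medium, 4HBP went with higher levels of the maternal RNA H19, the growth factor gene Igf2 and Peg10, and with lower levels of Peg3 and of the cell cycle inhibitor gene Cdkn1c. The differences ranged from 1.34-fold for Peg10 to 2.21-fold for Igf2. Meg3, Rian, Dlk1 and Ndn passed no threshold. Thus 3 of the 9 tested genes were called higher, where 8.59% of all tested genes were, and 2 were called lower, where 8.17% of all were. The median size of the log2 fold change was 0.43 over the 9 genes and 0.18 over all tested genes. The genes were chosen with earlier results of these data known, so these comparisons with all genes are descriptions only. The ranges of the 4HBP and control libraries did not overlap for 5 of the 9, against 29.5% of all tested genes.

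H19, the abundant non-coding RNA that shares enhancers with Igf2 and hosts miR-675, was at 171, 151 and 193 normalised CPM in the 3 proliferation controls and at 208, 292 and 372 CPM in the 3 4HBP libraries. Every 4HBP library lay above every control, and the 4HBP libraries were spread more widely. The level was 1.69-fold higher with 4HBP (log2 fold change 0.76 ± 0.16, adjusted p = 0.00735 in edgeR). Igf2, the ligand of the IGF receptors, was rare in all cultures, at 1.71, 2.17 and 2.63 CPM in controls and 2.94, 4.6 and 6.84 CPM with 4HBP. Its groups did not overlap, and replicate 3 was the highest 4HBP library for both genes. The difference of Igf2 was 2.21-fold (log2 fold change 1.14 ± 0.33, adjusted p = 0.0329 in edgeR). Without replicate 3 of the 4HBP group, H19 kept its call at a log2 fold change of 0.55 (adjusted p = 0.0071), and Igf2 lost it at 0.80 (adjusted p = 0.0931). Igf2 lost its call as well without 4HBP replicate 2 (adjusted p = 0.0613), control replicate 1 (0.117) or control replicate 2 (0.0923). It also lost its call in a fit with the transcript lengths of each library as offsets, at 0.87 (adjusted p = 0.202), and both H19 and Igf2 missed the threshold with limma on log2(CPM + 1), at adjusted p = 0.0661 for H19 and 0.106 for Igf2.

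Cdkn1c, which encodes p57, a cyclin-dependent kinase inhibitor that restrains growth, was at 43.3, 45.4 and 36.8 CPM in proliferation controls and at 26.4, 33.4 and 29.0 CPM with 4HBP. All 4HBP libraries lay below all controls. The level was 1.41-fold lower (log2 fold change -0.50 ± 0.12, adjusted p = 0.0132 in edgeR). The call was lost without control replicate 1 (adjusted p = 0.0520), without control replicate 2 (0.0632) and with limma (0.0875).

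Peg3, a zinc finger protein gene, showed the lowest adjusted p of the 9 genes. Controls in proliferation medium were at 117, 131 and 94.9 CPM, and 4HBP libraries at 74.2, 64.7 and 74.8 CPM. The groups were well separated, and the level was 1.61-fold lower with 4HBP (log2 fold change -0.68 ± 0.10, adjusted p = 0.000716 in edgeR). Peg10, a gene derived from a retrotransposon and known for its need in the placenta, moved the other way, from 63.8, 57.8 and 80.6 CPM in controls to 92.1, 95.8 and 83.8 CPM with 4HBP. The 4HBP libraries lay above the controls, though the highest control came close to the lowest 4HBP library. The difference was 1.34-fold (log2 fold change 0.43 ± 0.10, adjusted p = 0.0117 in edgeR). It missed the threshold without 4HBP replicate 2 (adjusted p = 0.0517) and without control replicate 1 (0.0518).

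The genes of the chromosome 12 domain did not pass the threshold in proliferation medium. Meg3, which is known as a growth-restraining non-coding RNA, was at 24.5, 23.8 and 29.4 CPM in controls and 24.4, 26.1 and 27.7 CPM with 4HBP, and Rian at 16.6, 16.5 and 19.6 CPM against 19.3, 17.5 and 15.0 CPM. The groups overlapped, with log2 fold changes of 0.01 ± 0.10 for Meg3 and -0.03 ± 0.11 for Rian (adjusted p = 0.955 and 0.907 in edgeR). Dlk1, which encodes a transmembrane protein related to the Notch ligands, was at 17.7, 18.2 and 25.4 CPM in controls and 19.9, 24.5 and 12.1 CPM with 4HBP. The lowest of these libraries for Dlk1 was replicate 3 of the 4HBP group, the groups overlapped, and the log2 fold change was -0.12 ± 0.21 (adjusted p = 0.755). Ndn, which encodes the neuronal growth suppressor necdin, was at 53.5, 55.3 and 58.6 CPM in controls and 55.4, 57.1 and 50.3 CPM with 4HBP, with overlapping groups (log2 fold change -0.04 ± 0.07, adjusted p = 0.731). Mirg drew 4, 2 and 1 counts in controls and 0, 1 and 5 counts with 4HBP, at or near the floor of 3 counts.

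Other markers moved beside these differences. The summed level of 6 markers of dividing cells ranged from 655 to 832 CPM in proliferation controls and from 323 to 642 CPM with 4HBP. All 6 had negative log2 fold changes, from -0.42 to -0.65, but none passed the threshold. At an unadjusted p under 0.05 in edgeR were all 6, where 4957 of the 15920 tested genes were. Replicate 3 of the 4HBP group had the lowest Mki67, at 156 CPM against 321 to 423 CPM in controls. Of 7 astrocyte markers 6 were lower with 4HBP, among them Gfap at a log2 fold change of -0.68 (adjusted p = 0.000648). The shares over all tested genes were 8.17% called lower and 8.59% higher. Of 8 NSC markers Fabp7 was lower (log2 fold change -0.35, adjusted p = 0.0116). Of 4 tested mural cell markers Notch3 (-0.69, adjusted p = 0.000973) and Pdgfrb (-2.28, adjusted p = 0.0331, on levels of at most 1.43 CPM) were lower. The other tested mural markers, Rgs5 (0.13) and Acta2 (-0.15), passed no threshold. Notch3 lay at 98.1 to 195 CPM in these 6 libraries, and which cells carried it was not tested. Of 8 markers of the oligodendrocyte lineage 2 were lower, and of 8 leptomeningeal or fibroblast markers, whose sum stayed between 3.32 and 6.56 CPM, 6 were too low to test and Foxc1 was higher (log2 fold change 0.74, adjusted p = 0.0298). The fibroblast marker Lum was at 0 in all 6 libraries. No gene was called among the 7 neuron markers or the tested markers of choroid plexus (4), endothelium (2) and microglia (1). The choroid plexus values were 3.6 for Folr1, 1.41 for Ttr, 0.21 for Otx2 and -0.46 for Aqp1. Folr1 reached at most 0.196 CPM and Ttr at most 2.08 CPM in these 6 libraries. The part of these cell types in the differences of H19, Igf2, Cdkn1c, Peg3 and Peg10 was not tested.

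**Figure D2:**
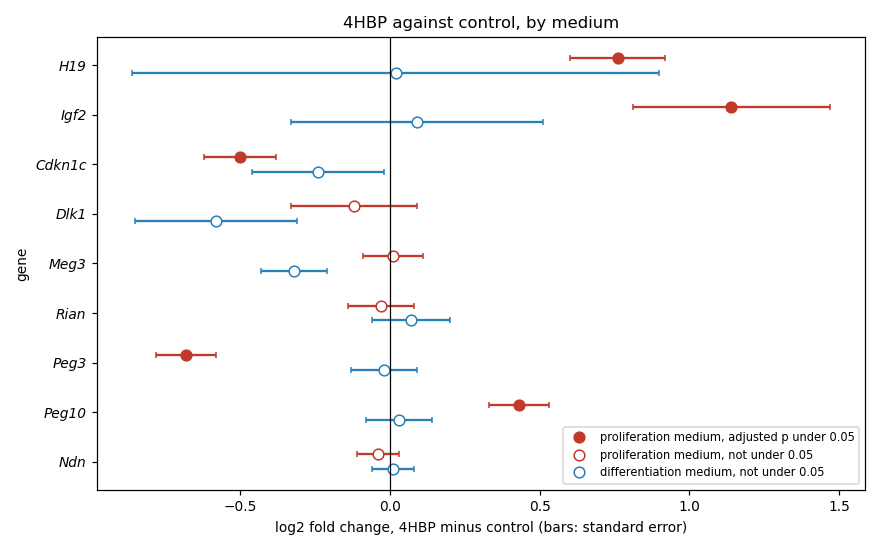
Log2 fold change of 4HBP against control (x axis, bars show the SE) for the 9 tested genes (y axis) in proliferation (red) and differentiation medium (blue), with filled points for adjusted p under 0.05. In proliferation medium Igf2, H19 and Peg10 lay to the right at 1.14, 0.76 and 0.43 and Peg3 and Cdkn1c to the left at -0.68 and -0.50, and no point of differentiation medium is filled.

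In differentiation medium, no gene of the set passed the threshold with 4HBP. The count was 0 of 9 with edgeR, and 0% of all 15920 tested genes were called either. At an unadjusted p under 0.05 edgeR gave 1 of the 9, Meg3, where 4.05% of all tested genes were under it (644 of 15920), and DESeq2 and limma also called 0 after adjustment. On the CPM scale Dlk1 and Meg3 had the largest differences from controls among the 9. With transcript lengths as offsets H19 (-0.68), Cdkn1c (-0.58) and Igf2 (0.48) differed more than Dlk1 (-0.38) and Meg3 (-0.29), and 0 were called. Dlk1 was at 6.92 and 6.17 CPM in the 2 controls and at 3.92, 4.52 and 4.69 CPM with 4HBP, and Meg3 at 32.2 and 27.8 CPM against 24.7, 25.4 and 21.8 CPM. For both genes the ranges did not overlap, as for 32.5% of all tested genes, with log2 fold changes of -0.58 ± 0.27 and -0.32 ± 0.11 (adjusted p = 1 for each in edgeR). A fit of these 5 libraries alone, whose spread is smaller, called both lower (adjusted p = 0.0413 for Dlk1 and 0.0423 for Meg3), where 1.29% of all genes tested in that fit were called lower. In that fit H19 did not pass the filter on low counts.

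The 5 genes called in proliferation medium passed no threshold here (adjusted p = 1 for each in edgeR). Peg3 was at 100 and 98.7 CPM in controls and 96.3, 99.5 and 98.0 CPM with 4HBP, and Peg10 at 78.3 and 82.9 CPM against 80.4, 83.3 and 82.5 CPM. The groups overlapped, with log2 fold changes of -0.02 ± 0.11 and 0.03 ± 0.11. Cdkn1c was at 2.16 and 3.21 CPM in controls and 2.00, 2.2 and 2.66 CPM with 4HBP (log2 fold change -0.24 ± 0.22), and Igf2 at 0.996 and 1.75 CPM against 2.11, 1.06 and 1.3 CPM (0.09 ± 0.42). H19 rested on 4 and 11 counts in controls and 8, 5 and 9 counts with 4HBP, so that a difference was not detectable at this depth. Rian was at 10.3 and 10.7 CPM against 12.2, 10.5 and 10.3 CPM, and Ndn at 69.8 and 68.0 CPM against 70.9, 65.5 and 72.4 CPM, both with overlapping groups. Mirg drew 3 and 4 counts in controls and 6, 9 and 5 with 4HBP.

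Whether the 4HBP difference itself depended on the medium was tested as an interaction. Of the 9 genes 1 passed, Peg3, where 4.49% of all tested genes did. Its difference with 4HBP was -0.68 ± 0.10 in proliferation medium and -0.02 ± 0.11 in differentiation medium, and the 2 differed by 0.66 ± 0.15 (adjusted p = 0.0246 in edgeR). The call was lost with limma (adjusted p = 0.13), and also without proliferation control replicate 1 (0.0614) or without any single library of differentiation medium (0.0599 to 0.123). The difference stayed between 0.55 and 0.78 when each of the 11 libraries was left out in turn. Peg10 gave -0.40 ± 0.15 (adjusted p = 0.156), Meg3 -0.33 ± 0.15 (0.229) and Igf2 -1.05 ± 0.54 (0.3). For H19 the interaction was -0.74 ± 0.93 (adjusted p = 0.712), with an SE larger than the estimate.

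Between the media the largest differences were those of H19, Cdkn1c and Dlk1. H19 fell by 9.04 on the log2 scale in controls, Cdkn1c by 3.95 and Dlk1 by 1.64, and all 3 were lower in every differentiation library than in every proliferation library. The comparisons with and without 4HBP use different libraries from each other, but each shares its libraries with the 4HBP comparisons above. In controls 1 of the 9 genes was called higher, where 30.8% of all tested genes were, and 4 were called lower, where 30.6% were. In 4HBP cultures 2 of 9 were called higher, against 33.3% of all, and 5 lower, against 33.8%. The median log2 fold change over the 9 genes was -0.64 in controls and -0.65 with 4HBP, against 0.03 and 0.01 over all tested genes.

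H19 went from 3067 to 3886 counts in proliferation controls to 4 and 11 counts in differentiation controls, a 525-fold lower level (log2 fold change -9.04 ± 0.37, adjusted p = 8.68e-10 in edgeR). With 4HBP it went from 4255, 6038 and 7936 counts to 8, 5 and 9 counts (log2 fold change -9.78 ± 0.31, adjusted p = 5.27e-11). H19 thus passed from the first of the 10 genes per length to the lowest 3. Between the 2 differentiation groups, at 4 to 11 counts, the SE of H19 was 0.88. The size of the fall is therefore less certain than the SEs of 0.37 and 0.31 show. Its size depended on the scale: with transcript lengths as offsets the log2 fold changes were -7.50 and -8.94, since the few H19 reads in differentiation medium were assigned to shorter isoforms, with effective lengths of 727.12 to 1393.85 bases against 2057.59 to 2086.74 bases. Igf2, its neighbour, differed by a log2 fold change of -0.64 ± 0.41 in controls, with overlapping groups (adjusted p = 0.194), and by -1.70 ± 0.34 with 4HBP (adjusted p = 0.000676). With length offsets Igf2 lost the second call, at -0.55 (adjusted p = 0.277).

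Cdkn1c was 15.5-fold lower in differentiation controls than in proliferation controls, at 2.16 and 3.21 CPM against 36.8 to 45.4 CPM (log2 fold change -3.95 ± 0.18, adjusted p = 1.88e-09 in edgeR). With 4HBP it was 13-fold lower (log2 fold change -3.70 ± 0.16, adjusted p = 6.53e-10). Ndn went the other way and was higher in differentiation medium, by 1.23-fold in controls (log2 fold change 0.30 ± 0.07, adjusted p = 0.00288) and by 1.28-fold with 4HBP (0.36 ± 0.07, adjusted p = 0.000323). The differentiation libraries lay between 65.5 and 72.4 CPM, all above the highest proliferation library at 58.6 CPM. Peg3 differed by -0.20 ± 0.11 in controls (adjusted p = 0.124) and was 1.37-fold higher in differentiation medium with 4HBP (0.46 ± 0.10, adjusted p = 0.000962). Peg10 passed in neither (0.26 ± 0.11 and -0.14 ± 0.10, adjusted p = 0.0588 and 0.219). In controls Peg10 was called higher under 4 of 8 other settings (library totals, no filter, limma and length offsets, with log2 fold changes of 0.24 to 0.35) and without proliferation 4HBP replicate 3 (0.26, adjusted p = 0.0345). Without proliferation control replicate 3, the controls of Peg3, Peg10 and Meg3 also passed, at -0.32, 0.41 and 0.31.

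**Figure D3:**
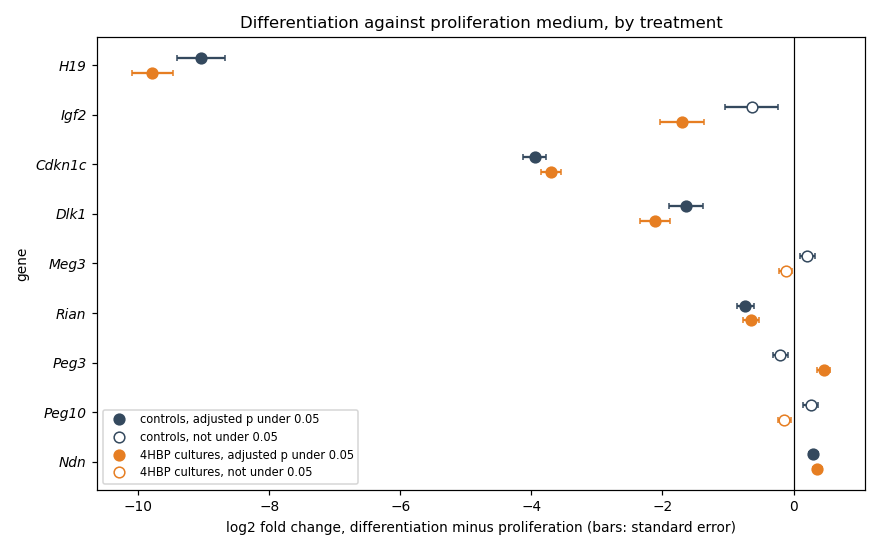
Log2 fold change of differentiation against proliferation medium (x axis, bars show the SE) for the 9 tested genes (y axis) in controls (dark) and 4HBP cultures (orange), with filled points for adjusted p under 0.05. H19 and Cdkn1c lay farthest to the left, at -9.04 and -3.95 in controls, while Ndn lay to the right of 0 in both.

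Markers of cell state moved with the medium as well. The summed level of 6 dividing-cell markers was 655 to 832 CPM in proliferation controls and 76.1 to 100 CPM in differentiation controls, and all 6 were called lower. The shares over all tested genes were 30.8% called higher and 30.6% lower, and a list's count near these is not a result about the list. Of 8 NSC markers 7 were lower and 1 higher, and of 8 markers of the oligodendrocyte lineage 5 were higher and none lower. Of 7 astrocyte markers 4 were higher and 3 lower, and of 7 neuron markers 4 were higher and 1 lower. Of 4 tested mural markers 1 was higher, Pdgfrb, from at most 1.43 CPM to 27.4 and 29.4 CPM, and 3 were lower. Of 4 tested choroid plexus markers 2 were higher and 1 lower, and of 2 tested endothelial markers 1 was lower. The 1 tested microglia marker was lower. Of 2 tested leptomeningeal or fibroblast markers 1 was called higher in controls, and 1 was called lower between the media with 4HBP. The sum over all 8 of these markers lay between 3.27 and 6.56 CPM in all 11 libraries. The part of these cell types in the medium differences of H19, Cdkn1c and Dlk1 was not tested.

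Within the Dlk1-Dio3 domain, Dlk1 and Rian were lower in differentiation medium, Meg3 had no stable direction and Dio3 was higher. Dlk1, at the start of the domain, was at 6.92 and 6.17 CPM in differentiation controls against 17.7, 18.2 and 25.4 CPM in proliferation controls, a 3.12-fold lower level (log2 fold change -1.64 ± 0.26, adjusted p = 0.000108 in edgeR). With 4HBP the level was 4.3-fold lower (-2.11 ± 0.23, adjusted p = 4.1e-06). Meg3 passed in neither, with 0.21 ± 0.11 in controls (adjusted p = 0.106) and -0.12 ± 0.10 with 4HBP (0.294). With length offsets the control difference of Meg3 was -0.19 and that with 4HBP -0.44, the latter called (adjusted p = 0.0138), so no direction is given for Meg3. Rian, 62.9 kb beyond the Meg3 start and host of C/D box small nucleolar RNAs, was 1.67-fold lower in controls (-0.74 ± 0.13, adjusted p = 0.000291) and 1.57-fold lower with 4HBP (-0.65 ± 0.12, adjusted p = 0.000258). On the length-corrected scale these were smaller, at -0.41 and -0.34 (adjusted p = 0.0278 and 0.034), whereas those of Dlk1 were larger, at -2.32 and -2.66. The effective length moved with the medium for Meg3, from 1658.06 to 1874.42 bases in proliferation controls to 2344.49 to 2458.55 bases in differentiation controls, and for Dlk1, from 763.92 to 870.48 bases to 1242.04 to 1396.31 bases.

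Dio3, which encodes the deiodinase that inactivates thyroid hormone and marks the far end of the domain at 738.1 kb from the Meg3 start, was listed at 0 counts in all 6 proliferation libraries. In differentiation medium it drew 57 and 56 counts in controls and 84, 95 and 122 with 4HBP. Against a floor of 3 counts per library it was at least 16.4-fold higher in controls and at least 31.1-fold higher with 4HBP. Rtl1, between Meg3 and Rian on the other strand, drew at most 3 counts in any library, and Mirg at most 9. The proliferation libraries held 0 to 5 counts of Mirg and the differentiation libraries 3 to 9.

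**Figure D4:**
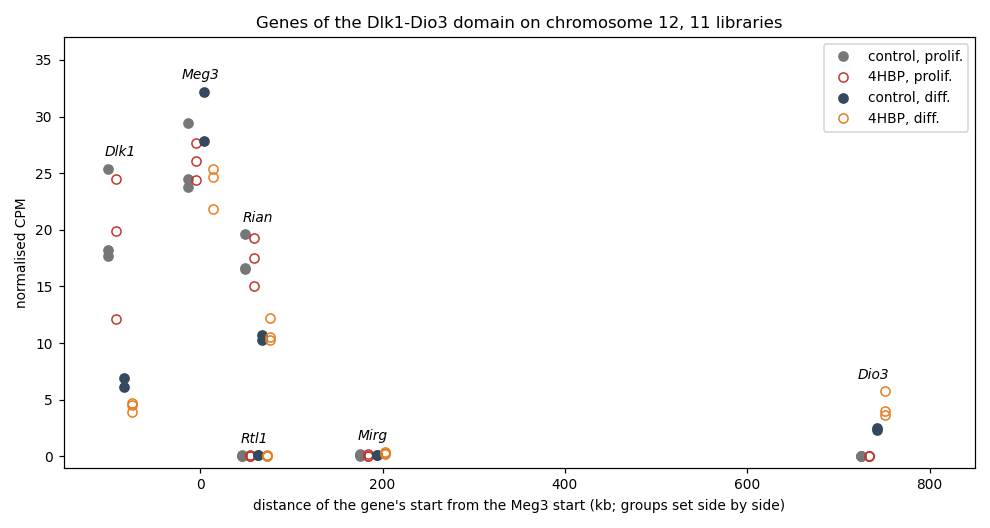
Normalised CPM (y axis) of 6 genes of the Dlk1-Dio3 domain in the 11 libraries, at the distance of each gene's start from the Meg3 start in kb (x axis, with the 4 groups set side by side). Dlk1, at -88.2 kb, and Rian were lower in differentiation medium, Dio3 was at 0 in all proliferation libraries and at 2.34 to 5.78 CPM in differentiation libraries, and Rtl1 and Mirg were near 0 throughout.

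Other genes were counted in 5 lists. Their counts stand against the shares of all tested genes, which with 4HBP in proliferation medium were 8.59% higher and 8.17% lower, between media in controls 30.8% and 30.6%, and between media with 4HBP 33.3% and 33.8%. A list's share near these is not a result about the list. Of 26 imprinted genes of the same clusters 15 were tested, and in proliferation medium 2 were higher with 4HBP (Ube3a at a log2 fold change of 0.28 and Sgce at 0.27) and 3 lower (Tssc4 at -0.25, Zim1 at -0.76 and Snrpn at -0.30). In differentiation controls 3 of the 15 were higher than in proliferation controls (Dio3, Sgce and Mkrn3) and 3 lower (Ube3a, Zim1 and Peg12), and with 4HBP 5 were higher and 2 lower. Of 25 imprinted genes of other clusters 21 were tested, with 3 higher and 3 lower under 4HBP in proliferation medium. The largest of them was Grb10, which encodes an adaptor that dampens insulin and IGF receptor signalling, at 43.1 ± 12 CPM with 4HBP against 11.2 ± 0.508 CPM in controls (SD, n = 3 each), or 3.83-fold (log2 fold change 1.94 ± 0.17, adjusted p = 5.34e-05 in edgeR). The others were Plagl1 (1.12) and Mest (0.52) among those higher and Nap1l5 (-0.41), Gatm (-0.39) and Nnat (-0.36) among those lower. Between media, 3 of the 21 were higher and 9 lower in controls, and 4 higher and 8 lower with 4HBP. Gatm, Mest, Inpp5f and Grb10 fell in both, by 1.62, 1.23, 1.11 and 1.18 on the log2 scale in controls.

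Genes that act with Igf2 were also counted. The IGF axis (receptors, binding proteins, adaptors and mRNA-binding proteins of IGF signalling) held 16 tested genes of 20, and with 4HBP in proliferation medium 5 were higher and 1 lower. Higher were the adaptor Irs2 (0.60), the binding protein Igfbp3 (1.42), the insulin receptor Insr (0.35), the IGF-binding protein protease Pappa (3.11, on levels of 0.181 CPM in controls and 1.6 CPM with 4HBP) and Igf1r, the receptor that carries the Igf2 signal. The binding protein Igfbp5 was lower, at 196 CPM with 4HBP against 546 CPM in controls (-1.48 ± 0.14, adjusted p = 7.09e-05 in edgeR). Between media 7 of the 16 were higher and 4 lower in controls, where the Igf2 mRNA-binding protein genes Igf2bp3 and Igf2bp2 fell by 2.08 and 2.07 on the log2 scale and Igfbp2 fell by 2.43. With 4HBP 4 were higher and 8 lower.

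The cyclin-dependent kinase inhibitors other than Cdkn1c were all tested, 6 of 6. With 4HBP in proliferation medium Cdkn1a, which encodes p21, was higher, at 334 ± 60.5 CPM against 126 ± 25.7 CPM (SD, n = 3 each; log2 fold change 1.41 ± 0.14, adjusted p = 8.69e-05 in edgeR), and Cdkn2c was lower (-0.57). Between media 2 were higher (Cdkn1a and Cdkn2a) and 3 lower (Cdkn2b, Cdkn2c and Cdkn1b) in controls, and 0 and 2 with 4HBP. Of 11 genes known for the upkeep of imprints 9 were tested, and with 4HBP in proliferation medium Uhrf1, a partner of the maintenance methyltransferase, was the one called (-0.76, adjusted p = 0.0452). Between media Dnmt3a was higher (1.14 in controls) and Dnmt1, Uhrf1, Ctcf and Smchd1 were lower in controls, with -1.60 for Dnmt1 and -3.15 for Uhrf1. With 4HBP 1 was higher and 6 lower. In differentiation medium 4HBP called no gene of these 5 lists. At an unadjusted p under 0.05 edgeR gave 1 gene of the same clusters, 1 of the IGF axis and 0 of the other 3. The share over all tested genes was 4.05% (644 of 15920).

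Likeness of pattern was measured as the root mean square difference of normalised log2 CPM over the 11 libraries, each gene centred on its own mean, among all tested genes. The closest gene was Dsel for Meg3 (0.10), Tedc2 for Rian (0.07), Alcam for Peg3 (0.08), Rae1 for Peg10 (0.07) and Dnm2 for Ndn (0.05). For the genes with larger changes it was Dysf for Dlk1 (0.18), Snhg12 for Igf2 (0.29), Ecm1 for Cdkn1c (0.31) and Rps12l1 for H19 (0.76). The measure is not scaled to a gene's own spread about its mean, so these larger values do not show less alike patterns. That spread was 0.99 for Dlk1, 0.78 for Igf2, 1.92 for Cdkn1c and 4.55 for H19, against 0.18 for Ndn and 0.15 for Meg3. All patterns come from the same 11 libraries of 4 groups. No gene of the set had another of the set as its closest, and for H19 the closest of the set, Cdkn1c, ranked 44 among all genes at 2.69.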

How the data were processed

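RNA was measured by sequencing in 11 libraries of 4 groups, taken from the sample labels. Per the study's methods and the submitters' processing notes, the authors checked adapters with FastQC 0.11.5, trimmed reads with cutadapt and quantified genes with RSEM 1.3.0 on Bowtie2 2.2.9 against mm10 (GRCm38) and GENCODE. The deposited tables give for each gene the expected count, which RSEM estimates and which need not be whole (18.6% of values above 0 were not), used here rounded to whole numbers. The deposited TPM, scaled by length and library by the authors, served for levels between genes. The deposited FPKM was not used, and the authors' transcript lengths served as other columns for the length offsets. Gene symbols and coordinates came from a GENCODE annotation of the same build, which matched 99.66% of the identifiers.

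Counts were tested with edgeR 4.0.16 (R 4.3.3): filter on low counts by group, TMM, 1 mean for each of the 4 groups over all 11 libraries, quasi-likelihood test, two-sided, Benjamini-Hochberg adjustment over 15920 genes, threshold 0.05. Differences are 4HBP minus control, or differentiation minus proliferation. The floor of 3 counts and the depth per library (20822921 to 23438463) bear on counting error only. Alternatives were DESeq2 1.42.0, limma 3.58.1 (the study's own tool, here on log2(CPM + 1), pseudocount 1), other size factors, no filter, only the libraries compared, a replicate block and each library left out in turn. A fit with effective lengths as offsets was chosen after seeing the data. The functions were tested on simulated data. Same-numbered libraries did not deviate together (correlations of -0.0612 to 0.0576), so their numbers were not taken as pairs. No 2 libraries of a group agree within sampling noise (chi-square per gene 2.53 to 23.8). The genes and lists were chosen with earlier results of these data known. The 10 genes are named with their values, and of each other list up to 4 genes per direction with the lowest adjusted p. Igf1r is named beyond that rule as the fifth gene called higher, after its values were seen, and so is Rtl1.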

Additional observations from a re-analysis of the deposited data

Results flagged for a closer look

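By the interaction test of edgeR, the difference with 4HBP differed between the media for Peg3 and for genes of the lists around it. Those were 1 imprinted gene of other clusters, 1 cyclin-dependent kinase inhibitor and, in the IGF axis, 1 gene with a positive and 5 with a negative value. Up to 4 genes per direction with the lowest adjusted p are named, so not all of the IGF axis are. Values are log2, as the difference in differentiation medium minus that in proliferation medium. For Peg3 it was 0.66 (SE 0.15, adjusted p = 0.0246): the 3 proliferation 4HBP libraries all lay below their controls, and the differentiation groups overlapped. Grb10 gave -1.76 (SE 0.29, adjusted p = 0.00744), from 1.94 in proliferation to 0.18 in differentiation medium. Igfbp5 gave 1.47 (adjusted p = 0.00297), Cdkn1a -1.46 (0.00297) and Igfbp3 -1.75 (0.0282). Irs2 gave -0.72 (adjusted p = 0.0136), Igf1r -0.71 (0.0187) and Insr -0.51 (0.0187). Dixon's test for a single outlying value was not run on these groups of 2 or 3 libraries. Of all tested genes 4.49% passed the same test.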

How the results depend on the processing

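Under 19 alternatives, 845 fold changes of single genes of the set were recomputed: 808 kept their side of the threshold, 22 lost a call and 15 gained 1, and no called value changed sign. Another 35 values that passed in neither fit changed sign, and those were given no direction. The 5 calls with 4HBP in proliferation medium became 2 with limma (Peg3 and Peg10) and 3 with only the libraries compared (Cdkn1c, H19 and Peg3, with Igf2 at adjusted p = 0.0588 and Peg10 at 0.0589), and 2 to 5 with each library left out. In differentiation medium the 0 calls became 2 with only the libraries compared (Dlk1 and Meg3) and stayed 0 with each library left out. The 5 calls between media in controls became 5 to 8 with each library left out, 8 without proliferation control replicate 3, and Peg10 was called there under 4 of 8 other settings. For the interaction, the 1 call became 2 with no filter (Peg10 beside Peg3) and 0 with limma, and 0 to 2 with each library left out. Igf2 between media with 4HBP moved from -1.70 to -0.55 with length offsets. With the replicate block the counts were 5, 0, 5 and 7 for the 4 comparisons and 1 for the interaction, so the block changed no count. The causes of the lost calls were not tested. H19 in differentiation medium, with 4 to 11 counts, and Mirg, with 0 to 9, limit what depth can show.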
